A study of Mus musculus with 16 samples.

Results

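RNAs of ion channel subunit genes were followed in the RNA–chromatin contacts of mouse embryonic stem cells. The members are protein-coding RNAs whose gene symbol begins with the root of a channel family, namely potassium (Kcn), calcium (Cacn), sodium (Scn), ionotropic glutamate receptor (Grin, Gria, Grik, Grid), transient receptor potential (Trpa, Trpc, Trpm, Trpv), intracellular calcium release (Ryr, Itpr), pacemaker (Hcn), chloride (Clcn), anoctamin (Ano) and GABA receptor (Gabr) genes, with Kcnq1 and names containing "ot" left out. The 2 libraries together listed 150 such RNAs out of 10736 protein-coding RNAs (pcRNAs), and the rule uses no measured value. Annotation of the same genome build holds 222 genes that meet the rule, so 72 were not listed in either library. The name rule also took 2 listed RNAs of proteins that bind channels or receptors and are no subunits, which stay in the counts.

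RADIP ligates RNA to the DNA beside it in fixed nuclei through a bridge adaptor and then pulls down the chromatin with an antibody to H3K27me3. PGK12.1 embryonic stem cells were grown with serum and leukemia inhibitory factor and crosslinked with 1% formaldehyde, and the labels name no genetic change and no drug. H3K27me3-RADIP denotes the libraries made with the antibody. Input denotes those made without it, from a part of the same lysate set aside before the pull-down. The labels list 8 libraries for each condition, which by the study's text come from fewer biological replicates, and which libraries share one is not given in the sources used here. The pairs analysed were merged by the authors into 1 table per condition, so no replicate error exists and every comparison is between 2 merged libraries. All intervals given are 95% intervals that cover counting error only, apart from the range of the ratio of median distances, which is wider.

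Channel subunits assemble into pores that let ions cross a membrane. Pore-forming subunits carry the selectivity filter and gate, while accessory subunits set their traffic and kinetics. Many of these genes are long, are used in neurons and muscle, and are kept silent or low in stem cells. H3K27me3, laid down by Polycomb repressive complex 2, is a mark found at silenced developmental genes. No separate measure of expression or of this mark at the channel genes was used here.

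A line of each table is 1 pair of a 25-base RNA tag and a 25-base DNA tag. Input held 1305107 pairs and H3K27me3-RADIP held 1415135, and only pairs in which the combination of RNA and 25-kb DNA bin had passed the authors' q-value limit of 0.1 were present. A listed combination held at least 7 pairs, with a median of 13 in both libraries. In such bulk data more contacts per RNA molecule, more RNA and more cells that hold it cannot be told apart. An RNA that is not listed therefore had no combination past that limit, which is not a count of 0. At this depth 3 pairs are a share of 0.000230% of Input and 0.000212% of H3K27me3-RADIP. Of 12 embryonic stem cell marker RNAs, 5 were listed in Input and 6 in H3K27me3-RADIP, summing to 2627 and 2734 pairs, most of them from Esrrb, while Pou5f1 and Nanog were at no listed pair in either. Of 10 neuron and muscle marker RNAs, 5 were listed in each library, with 505 and 668 pairs in all, and Rbfox3 held 259 and 470 of these, while the other 4 had fewer pairs in H3K27me3-RADIP than in Input.

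A few tags show what was read. They are written 5′ to 3′ on the strand of the RNA from GRCm38 (mm10) sequence, with G and C in capitals, and are the 5 that met the most different DNA positions among the tags of the named RNAs, 1 tag for each RNA.
Grik3: CCCaGataGGaaaCaCGGtaaCaGC
Cacna1a: GCaGGaGaattGtaGttGtaaGGCt
Ano6: tCCCtGttGGaGaaaGCCtGtCaCt
Itpr1: CCaCCtaaGCtGGtGtatGaCtaaG
Trpm7: aattGGaGttataGGCaGttGtGaa

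All 5 tags lie in introns, and each is a small part of its RNA. The Grik3 tag, at chr4:125638194-125638218 on the plus strand, joined 18 different DNA positions in 8 Input and 12 H3K27me3-RADIP pairs, against 2564 RNA tag positions for the whole gene. The Cacna1a tag at chr8:84458967-84458991 (plus strand) was read in 7 and 10 pairs and met 16 DNA positions. The Ano6 tag at chr15:95798362-95798386 (plus strand) was read in 7 Input pairs and 1 H3K27me3-RADIP pair. The Itpr1 tag at chr6:108247396-108247420 (plus strand) was read in 4 pairs in each library, and the Trpm7 tag at chr2:126873130-126873154 (minus strand) in 3 pairs in each. Contacts of the channel RNAs were thus spread along their genes, and 93.5% (93.1 to 93.9) of the Input pairs and 93.2% (92.8 to 93.6) of the H3K27me3-RADIP pairs had an intronic RNA tag. The difference of -0.30 percentage points (-0.85 to 0.25) is within counting error. Every channel RNA tag lay on the annotated strand of its gene.

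The channel RNAs held 14303 Input pairs from 131 RNAs and 17440 H3K27me3-RADIP pairs from 140 RNAs. They made up 1.10% (1.08 to 1.11) of the Input table and 1.23% (1.21 to 1.25) of the H3K27me3-RADIP table, and the ratio of these shares was 1.12 (1.10 to 1.15). Without Grik3, which gained the most pairs, the ratio was 1.09. Over the same libraries the share of all pcRNAs had a ratio of 0.994 (0.994 to 0.995). A few RNAs held much of the signal, since the 5 with the most pairs made up 41.2% of the channel pairs of Input and 41.1% of those of H3K27me3-RADIP. At the other end, 42 RNAs in Input and 40 in H3K27me3-RADIP were listed through a single 25-kb bin.

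Of the 150 RNAs, 121 were listed in both libraries, or 80.7%, where 76.0% of all pcRNAs in either table were listed in both. The 10 listed only in Input were 6.67% of the members against a background of 10.5%, and the 19 listed only in H3K27me3-RADIP were 12.7% against 13.5%. Both shares lie near or below the background. Kcnt2, which encodes a sodium-activated potassium channel, was the RNA with the most pairs in this class, with 109 Input pairs in 10 bins. Its gene body is 35.7% GC. The next in Input were Gria4 (18 pairs), an AMPA receptor subunit, Cacna1f (11), Kcns3 (10), and Cacnb3 and Kcng4 (8 each). In H3K27me3-RADIP they were Kcng2 (26 pairs), an electrically silent potassium channel subunit, Ano7 (20), Kcnip2 (18), and Ano8, Ano9 and Trpm1 (16 each). Apart from Kcnt2 these counts are close to the smallest that the tables can list, and no ratio is given for them.

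**Figure D1:**
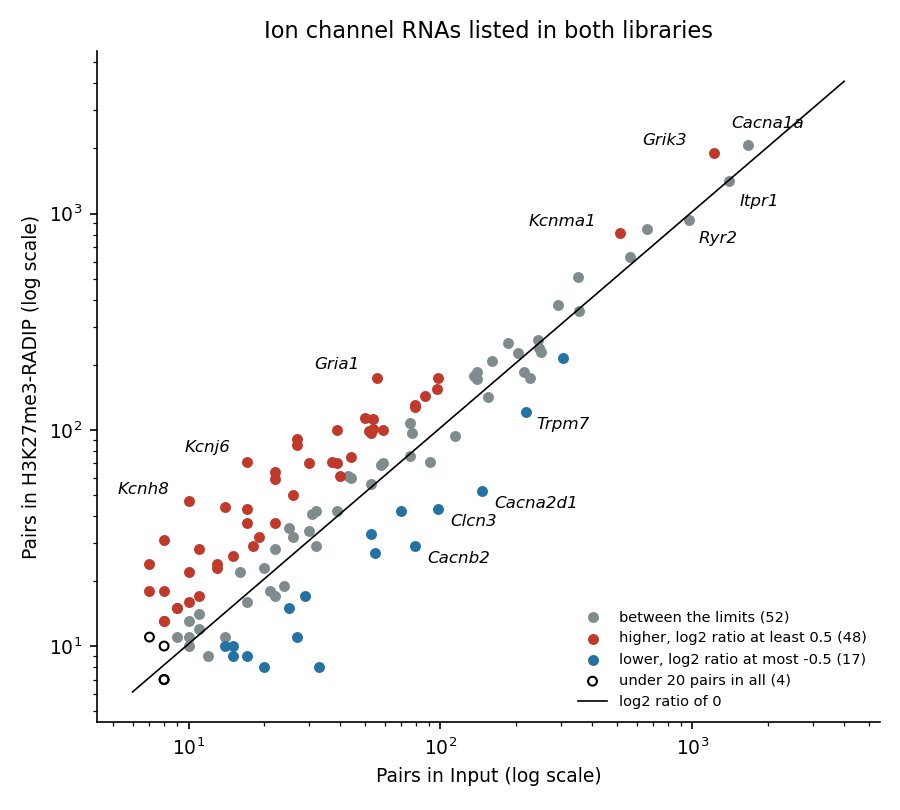
Pairs per ion channel RNA in Input (x axis, log scale) and H3K27me3-RADIP (y axis, log scale), 1 point for each of the 121 RNAs listed in both libraries. The line marks a log2 ratio of 0 after TMM scaling, and the 48 points in red outnumber the 17 in blue.

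Ratios between libraries were computed for RNAs listed in both, scaled with TMM factors from all pcRNAs, and read for RNAs with at least 20 pairs in all. An RNA was called higher or lower in H3K27me3-RADIP when its log2 ratio was at least 0.5 or at most -0.5. Of 117 channel RNAs tested, 48 were higher (41.0%, beside 21.2% of the 7660 pcRNAs tested) and 17 were lower (14.5%, beside 22.9%). Without the RNAs of binding proteins the counts were 48 and 16. The median log2 ratio of the channel RNAs was 0.35 and that of all pcRNAs was 0.00. A counting interval that left out 0 was also found for 33 of the higher RNAs (28.2%, beside 13.6%) and for 11 of the lower (9.40%, beside 14.9%). The plot of pairs in the 2 libraries shows the excess above the line at low and high counts alike, and with at least 100 pairs 22 of 58 channel RNAs were higher (37.9%, beside 15.0%).

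Pore-forming voltage-gated calcium channel RNAs were among those with the most pairs. Cacna1a (P/Q-type, chr8:84388440-84640246, plus strand) had 1655 Input pairs and 2074 H3K27me3-RADIP pairs, a log2 ratio of 0.29 (0.20 to 0.39). Cacna1c (L-type, chr6:118587240-119196418, minus strand) had 351 and 507 pairs, and its log2 ratio of 0.50 (0.30 to 0.70) fell just short of the limit before rounding. Cacna1h (T-type), with 39 and 70 pairs, passed it at 0.81 (0.23 to 1.42). In all, 5 of the 9 Cacna1 RNAs tested were higher (beside 21.2% of pcRNAs), 2 of 9 after the correction for GC given further on, none was lower, and the family held 2533 Input and 3374 H3K27me3-RADIP pairs.

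The accessory calcium channel subunits were split. Cacnb4, a beta subunit that aids membrane traffic, had 27 Input and 91 H3K27me3-RADIP pairs, a log2 ratio of 1.72 (1.09 to 2.40). Its relative Cacnb2 went the other way with 79 and 29 pairs, at -1.48 (-2.15 to -0.85). Cacna2d1, an alpha-2-delta subunit, had 146 and 52 pairs and a log2 ratio of -1.52 (-2.01 to -1.06), whereas Cacna2d3, with 353 and 356 pairs, stood at -0.02 (-0.24 to 0.20). Cacna2d2 and Cacna2d4 were higher, at 0.65 (0.24 to 1.08) and 0.74 (0.18 to 1.31). Of 4 Cacna2d RNAs 2 were thus higher and 1 lower (beside 21.2% and 22.9% of pcRNAs). After the correction for GC 0 were higher and 1 was lower (beside 18.2% and 21%). Among the Cacng RNAs, which include AMPA receptor partners, 3 of 5 were higher and 2 were lower (beside 21.2% and 22.9% of pcRNAs). For 1 of the 2 lower the interval held 0. Cacng4 had 22 and 59 pairs, at 1.39 (0.66 to 2.17).

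Glutamate receptor RNAs gave the most pairs of any family, 2874 in Input and 4060 in H3K27me3-RADIP, and 6 of 14 tested were higher and 2 lower (beside 21.2% and 22.9% of pcRNAs). After the correction for GC 4 were higher and 2 lower. One of the lower RNAs encodes a binding protein and no receptor subunit, and its interval held 0. Grik3, a kainate receptor subunit (chr4:125490700-125714173, plus strand), had 1212 and 1903 pairs, at 0.62 (0.51 to 0.72). Its relative Grik4 had 662 and 851 pairs, at 0.33 (0.18 to 0.48). The AMPA receptor RNA Gria1 had 56 and 174 pairs, at 1.60 (1.16 to 2.06), and the obligatory NMDA receptor subunit Grin1 had 22 and 64, at 1.51 (0.79 to 2.28). Grid1, a delta receptor subunit, had 293 and 378 pairs, at 0.34 (0.11 to 0.56), short of the limit.

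Of 19 voltage-gated potassium channel RNAs tested, 10 were higher and 3 were lower (beside 21.2% and 22.9% of pcRNAs), and after the correction for GC 7 were higher and 1 lower. The interval held 0 for 4 of the 10 higher and 1 of the 3 lower. Kcnh8, of the ether-a-go-go group, had 10 Input pairs and 47 H3K27me3-RADIP pairs, at 2.20 (1.20 to 3.35), the largest ratio among members with at least 50 pairs. Kcnb2, a delayed rectifier, had 53 and 33, at -0.72 (-1.39 to -0.06), and Kcnh1 had 76 in each library. Inward rectifiers were higher in 4 of 5 (beside 21.2%), or 3 of 5 after the correction for GC, but for 3 of the 4 the interval held 0. The other was Kcnj6, a G-protein-gated channel, with 17 and 71 pairs, at 2.03 (1.25 to 2.89). Kcnma1, the pore of the large-conductance calcium-activated channel (chr14:23289431-24014491, minus strand), had 517 and 817 pairs, at 0.63 (0.47 to 0.79). Of two-pore-domain RNAs 1 of 5 was higher, and of potassium channel partner RNAs 2 of 6, counts near the 21.2% of all pcRNAs. After the correction for GC 1 RNA was higher in each of these families.

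Of 8 sodium channel RNAs tested, 2 were higher, near the 21.2% of pcRNAs, and 6 lay between the limits, and the family held 252 Input and 373 H3K27me3-RADIP pairs. Of 6 intracellular calcium release channel RNAs, 2 were higher (beside the same 21.2%) and none lower, with a family median of 0.32, and the 2 with the most pairs were nearly level. Itpr1, the inositol trisphosphate receptor (chr6:108213096-108551109, plus strand), had 1402 and 1409 pairs, at -0.03 (-0.13 to 0.08), and Ryr2, the cardiac ryanodine receptor (chr13:11553102-12106945, minus strand), had 965 and 936, at -0.08 (-0.21 to 0.05). Of 11 Trp RNAs tested 4 were higher and 1 lower (beside 21.2% and 22.9%), or 2 and 1 after the correction for GC, and for 2 of the 4 higher the interval held 0. Trpm7, a channel fused to a kinase, was the lower one before the correction, with 218 and 121 pairs, at -0.88 (-1.21 to -0.55), and stood at -0.18 after it. Of 6 Ano RNAs 3 were higher and 1 lower before the correction (beside 21.2% and 22.9% of pcRNAs). The counts were the same after it (beside 18.2% and 21%). For 1 of the 3 higher the interval held 0. Ano6, a calcium-dependent lipid scramblase, had 564 and 630 pairs, at 0.13 (-0.04 to 0.29), and Ano1, a calcium-activated chloride channel, had 39 and 100, at 1.33 (0.78 to 1.90).

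Of 6 Clcn RNAs tested, none was higher and 2 were lower (beside 22.9% of pcRNAs), and for 1 of these the interval held 0. Clcn3, an endosomal chloride–proton exchanger, had 98 and 43 pairs, at -1.22 (-1.77 to -0.69). Of the GABA receptor genes, 8 of 19 were listed at all and 2 could be tested, too few to describe the family. Gabrg3 had 55 and 27 pairs, at -1.06 (-1.78 to -0.37), but 8 and 9 pairs in its shared bin, at 0.22 (-1.32 to 1.80), and its ratio was -0.30 at a q-value of at most 0.01.

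**Figure D2:**
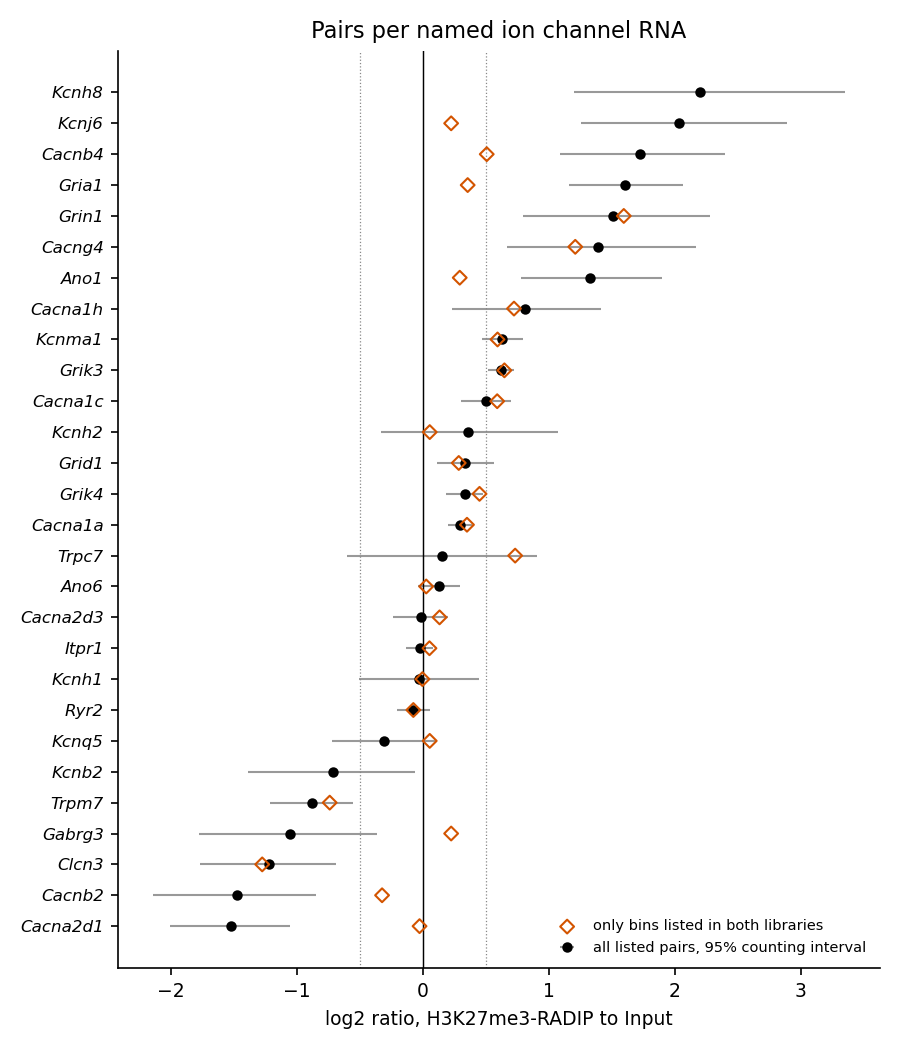
Log2 ratio of pairs, H3K27me3-RADIP to Input, for 28 named RNAs listed in both libraries (black points, bars are 95% counting intervals), with the ratio from bins listed in both libraries as open diamonds (Kcnh8 and Kcnb2 share no bin and have none). Dotted lines mark -0.5 and 0.5, and the diamonds of Kcnj6, Gria1, Ano1, Cacna2d1, Cacnb2 and Gabrg3 lie inside them while their points lie outside, that of Gabrg3 on the other side of 0.

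The number of listed bins moved with the ratio, in channel RNAs and in pcRNAs alike. Of the 48 higher RNAs, 41 had more listed bins in H3K27me3-RADIP than in Input (85.4%, beside 81.1% of all higher pcRNAs), and of the 17 lower RNAs 13 had fewer (76.5%, beside 67.4%). When only combinations listed in both libraries were used, 24 of 98 channel RNAs were higher (24.5%, beside 12.1% of pcRNAs) and 7 were lower (7.14%, beside 14.3%). The plot of named ratios shows which RNAs kept their ratio there. Grin1 stood at 1.59 (0.87 to 2.36) in its 2 shared bins, Cacng4 at 1.21 (0.46 to 2.00), Grik3 at 0.65 (0.54 to 0.75), Trpm7 at -0.74 (-1.09 to -0.39) and Clcn3 at -1.28 (-1.89 to -0.70). By contrast Gria1 went from 5 bins to 13, and in the 5 shared bins it had 56 and 69 pairs, at 0.35 (-0.18 to 0.89). Cacna2d1 went from 16 bins to 6 and stood at -0.03 (-0.60 to 0.55) in the 6 shared, and Cacnb2 had 13 and 10 pairs in its shared bin, at -0.33 (-1.67 to 0.98). Gabrg3 changed sign there, as given above. Kcnh8 had no bin in common between the libraries.

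The ratio moved with the base composition of the gene. Across the 117 channel RNAs Spearman's rho between the log2 ratio and the GC content of the gene body was 0.38, and across 7659 pcRNAs it was 0.40. These are descriptions across genes of 1 pair of libraries, and genes are not independent replicates. All 7 channel RNAs from genes of at most 38% GC were lower, with log2 ratios from -2.08 to -0.77, as were 73.4% of the pcRNAs of that class. Above 50% GC, 26 of 42 channel RNAs were higher (61.9%, beside 38.3% of pcRNAs) and 3 were lower (7.14%, beside 10.1%). The higher channel RNAs came from genes with a median GC of 50.5% and the lower from genes with a median of 40.0%. GC of the 1 kb around the DNA tags also differed between the libraries, at 45.9% in Input and 47.4% in H3K27me3-RADIP for channel RNAs, and at 45.0% and 46.7% for all pcRNAs.

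After subtraction of the median log2 ratio of pcRNAs of like GC, 33 of 117 channel RNAs were higher (28.2%, beside 18.2%) and 14 were lower (12.0%, beside 21%), with a median of 0.25. On that scale Kcnh8 stood at 2.70, Kcnj6 at 1.89, Gria1 at 1.58 and Kcnma1 at 0.62. Short of the limit on that scale were Grik3 at 0.35, Cacna1h at 0.48, Kcnb2 at -0.34 and Trpm7 at -0.18, all called before. Cacnb2 and Cacna2d1 stood at -1.10 and -0.82. The part of base composition in the ratio was not tested further.

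**Figure D3:**
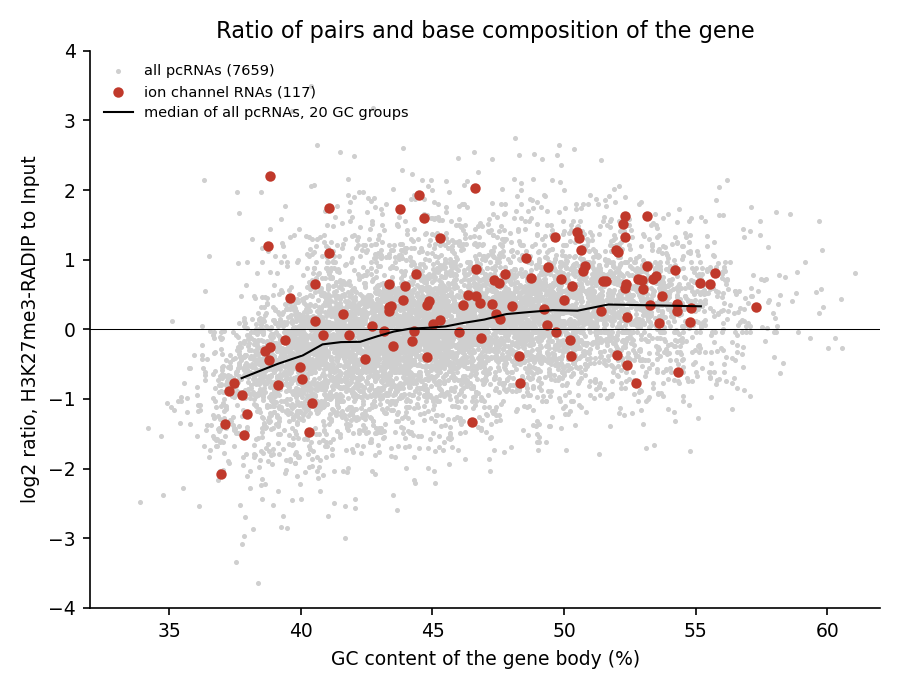
Log2 ratio of pairs against GC content of the gene body for 7659 pcRNAs with at least 20 pairs (grey) and 117 ion channel RNAs (red), with the median of the pcRNAs in 20 groups of GC (black line). The axes hold 7656 of the grey points, and both sets lie lower at low GC.

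Contacts of the channel RNAs were all on their own chromosome, and no trans pair was listed in either library, which at a count of 0 allows up to 0.0269% of Input pairs and 0.0220% of H3K27me3-RADIP pairs (upper Wilson limits). From RNA tag to DNA tag the median was 32.1 kb for Input and 34.8 kb for H3K27me3-RADIP pairs, a ratio of 1.08. Its range of 0.974 to 1.21 was made by dividing opposite ends of the separate intervals of both medians. That range is wider than an interval of the ratio, so it cannot decide whether the ratio differs from 1. For all pcRNAs the medians were 44.4 and 68.8 kb, a ratio of 1.55. Over 100 kb lay 31.7% (30.9 to 32.5) and 33.0% (32.3 to 33.7) of them, a difference of 1.33 percentage points (0.30 to 2.37). The same share for pcRNAs went from 36.4% to 43.7%, a difference of 7.29 points (7.17 to 7.41). Both intervals take pairs as independent draws, although pairs share RNAs and bins, so they do not test the sets against each other. For Slc transporter RNAs, another family of membrane transport genes, the difference was 6.00 points (5.05 to 6.94). Without Grik3 the channel difference was 0.52 points, and the ratio of medians was 1.02.

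**Figure D4:**
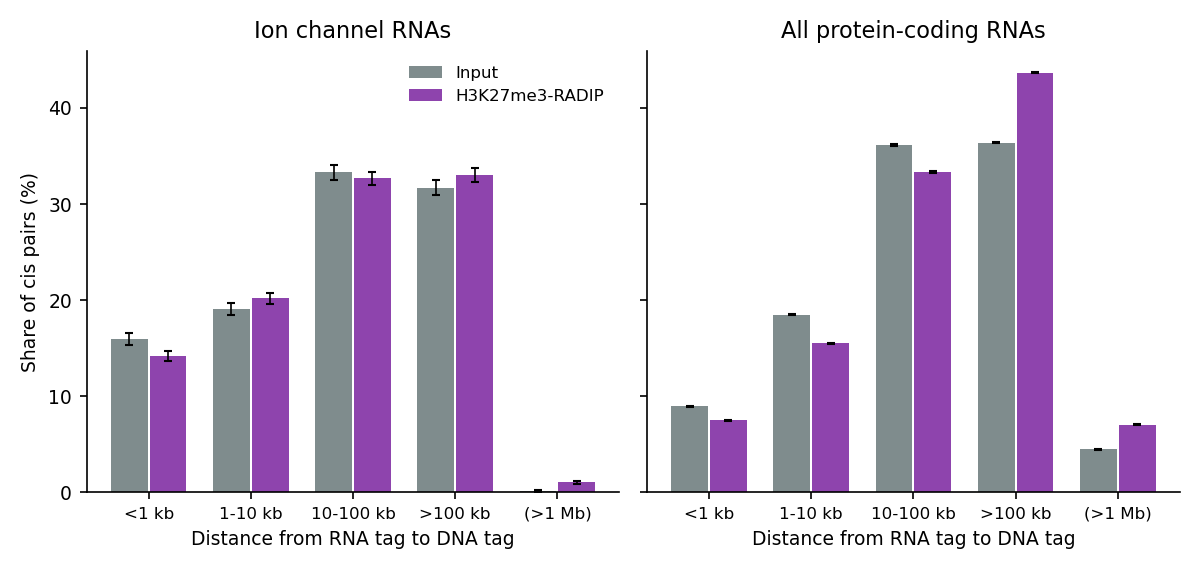
Share of cis pairs in classes of distance between RNA tag and DNA tag, for ion channel RNAs (left) and all pcRNAs (right) in Input (grey) and H3K27me3-RADIP (purple), with 95% Wilson intervals; the class over 1 Mb is part of the class over 100 kb. Channel RNAs had 31.7% and 33.0% of pairs over 100 kb, and pcRNAs 36.4% and 43.7%.

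Distances were also compared RNA by RNA. Of 73 channel RNAs with at least 20 pairs in each library, 52 had a longer median distance in H3K27me3-RADIP (71.2%, beside 73.6% of 5264 pcRNAs), and the median of their ratios was 1.38, beside 1.37. With these 73 RNAs weighted equally, the share over 100 kb differed by 1.63 points, close to the pooled 1.33. Among the RNAs with the most pairs, short and long medians both occurred. Cacna1c had medians of 13.5 and 15.8 kb, Cacna2d3 21.5 and 19.4 kb, and Grid1 35.7 and 46.5 kb. Grik3 had medians of 170.8 and 165.9 kb, Itpr1 84.0 and 93.3 kb, Cacna1a 84.5 and 90.9 kb, Grik4 100.2 and 104.7 kb, and Ryr2 102.1 and 131.8 kb. Ano6 went from 62.7 to 103.3 kb and Kcnma1 from 54.2 to 75.7 kb.

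The largest relative increases came from RNAs with short Input medians. Gabrg3 went from 2.17 to 35.0 kb, Ano1 from 0.92 to 8.35 kb, Cacna1h from 1.32 to 11.8 kb, Trpc7 from 0.68 to 5.22 kb and Kcnh2 from 0.76 to 4.75 kb. In the other direction Kcnq5 went from 53.0 to 10.3 kb, Kcnh1 from 10.1 to 2.94 kb, Cacnb2 from 6.59 to 2.11 kb and Cacnb4 from 19.4 to 7.50 kb. These RNAs had 2 to 11 listed bins in a library, so a single bin can move such a median.

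DNA tags of channel RNAs stayed mostly within the transcribed gene. Outside the own gene lay 25.6% (24.9 to 26.3) of Input pairs and 28.2% (27.5 to 28.8) of H3K27me3-RADIP pairs, which differ by 2.57 points (1.59 to 3.54). For pcRNAs the shares were 43.1% and 51.3%. The tested channel genes are long, with a median of 111 kb, while that of all tested pcRNAs is 49.1 kb. DNA tags upstream of the gene start made up 13.3% and 14.8% of channel pairs and those past the gene end 12.3% and 13.4%. Within 2 kb of the own start lay 140 Input pairs, 0.979% (0.830 to 1.15), and 290 H3K27me3-RADIP pairs, 1.66% (1.48 to 1.86). The same share for all pcRNAs was 1.68% and 1.61%.

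Contacts beyond 1 Mb were few. Input listed 18 such pairs (0.126%) and H3K27me3-RADIP listed 180 (1.03%), which differ by 0.91 points (0.75 to 1.07). The same share of pcRNA pairs was 4.48% and 7.04%. They came from 5 RNAs in Input and 7 in H3K27me3-RADIP. Itpr1 gave 9 of the Input pairs, at chr6:106775000-106799999, a bin with Crbn and Trnt1, and none in H3K27me3-RADIP. In H3K27me3-RADIP Grik3 gave 60, Ano6 50, Kcnma1 28, Grik4 15, Ryr2 14 and Cacna1a 12. Kcnma1 reached chr14:21975000-21999999, the bin of the transcription factor gene Zfp503, with 14 pairs at a median of 1900 kb. Cacna1a reached chr8:88675000-88699999, which holds Cyld and Nod2, with 12 pairs at 4245 kb. Ano6 had 8 pairs with chr15:89525000-89549999, the bin of the synaptic scaffold gene Shank3, at 6316 kb, the longest listed contact of a channel RNA. No channel bin beyond 1 Mb was listed in both libraries. With only 18 such Input pairs little overlap was possible, and the same overlap was not computed for all pcRNAs.

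The same genes were also read from the DNA side, as the place where DNA tags of other RNAs landed. In the bodies of the 222 annotated channel genes, tags from other RNAs numbered 4543 for Input and 8216 for H3K27me3-RADIP, and the ratio of their shares of all pairs was 1.67. For all 21768 protein-coding genes the ratio was 1.14. Of 96 channel genes with at least 20 such tags in all and some in each library, 62 were higher in H3K27me3-RADIP by the same limit, scaled by library totals (64.6%, beside 34.6% of 7049 genes), and 8 were lower (8.33%, beside 24.1%). RNAs of genes that overlap the channel gene gave 318 and 439 of these tags, and 78.5% and 80.9% came from RNA tags over 100 kb away.

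Cacna1d, an L-type pore, received 27 tags of other RNAs in Input and 154 in H3K27me3-RADIP, 55 of the latter from Erc2. Grik4 received 30 and 135, Scn4a 7 and 62, and Kcnma1 135 and 338, of which Kat6b gave 118 and 290. Trpc5, whose own RNA was not listed, received 112 and 57, all from Alg13, and Clcn3 received 17 and 3. Kcnip1 received by far the most tags, 709 and 1077, largely from Ranbp17 with 570 and 878. Here too GC moved with the ratio, with Spearman's rho of 0.47 over 96 channel genes and 0.48 over 7047 genes, given as a description. Above 50% GC 31 of 35 channel genes were higher (88.6%, beside 55.8%), and between 46% and 50% GC 17 of 27 (63.0%, beside 39.9%). Between 42% and 46% GC 14 of 24 were higher (58.3%, beside 24.5%). Up to 42% GC 0 of 10 were higher (beside 9.07%) and 7 were lower (70%, beside 60.7%).

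**Figure D5:**
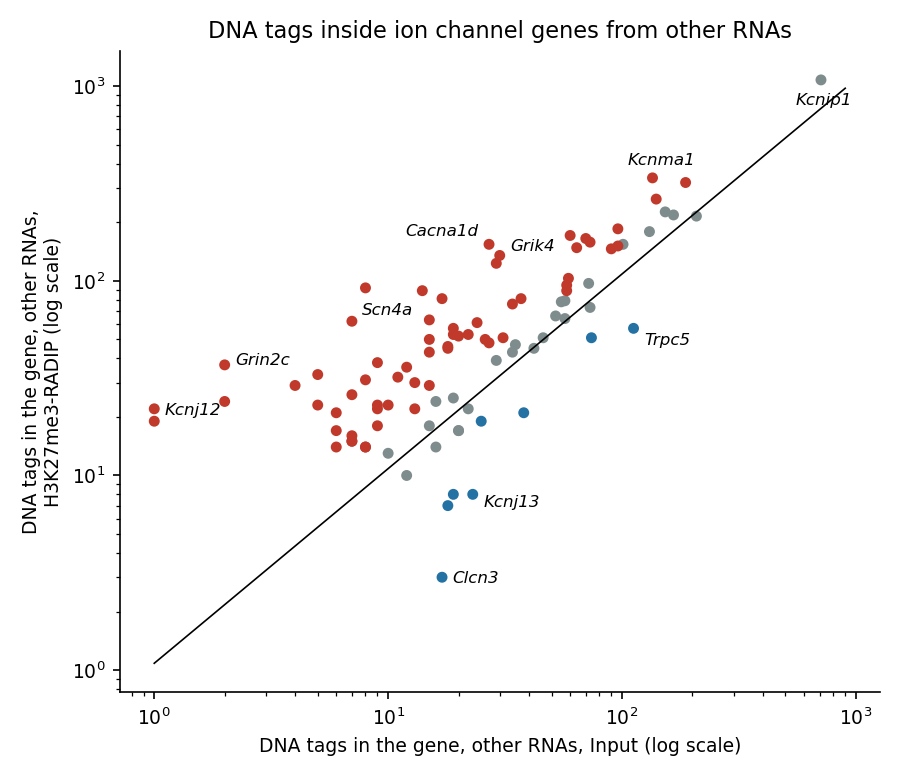
DNA tags of other RNAs inside the bodies of 96 ion channel genes with at least 20 such tags in all and some in each library, Input (x axis, log scale) against H3K27me3-RADIP (y axis, log scale). Red marks a log2 ratio of at least 0.5 (62 genes), blue at most -0.5 (8 genes) and grey those between, and the line marks equal shares of all pairs.

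Around the gene starts the counts were small. Within 2 kb of the start of the 222 channel genes Input had 513 DNA tags of any RNA and H3K27me3-RADIP had 1158, a ratio of 2.08 between their shares of all pairs, beside 1.18 for all protein-coding genes. Of 24 channel genes with at least 20 tags there and some in each library, 16 were higher (66.7%, beside 37.8%) and 0 were lower (beside 20.8%). For tags of other RNAs alone the ratio of shares was 2.15, beside 1.28. Of 13 channel genes with enough such tags 7 were higher (53.8%, beside 45.3%) and 2 lower (15.4%, beside 16.7%), near the background. Kcng2, one of the RNAs listed in H3K27me3-RADIP alone, had 2 and 18 tags at its start, and Cacng4 had 8 and 30.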

How the data were processed

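RNA and DNA tag pairs of PGK12.1 mouse embryonic stem cells were analysed, grouped as Input or H3K27me3-RADIP by the labels. The authors split the tags at the adaptor, mapped them to mm10, kept unique pairs, removed blacklisted regions, annotated RNA tags with GENCODE genes and took significance from a modified negative binomial fit based on CHiCANE. BWA 0.7.15-r1140, STAR 2.5.0a and CASAVA 1.8.2 are named in the submitters' processing notes. Each deposited q-value, a p-value adjusted by the authors, is that of the pairing of one RNA with a 25-kb bin, and lines above a q-value of 0.1 had been removed by the authors. Replicates had been merged, and no counts were given, so lines were counted.

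Gene positions and sequence came from GENCODE M21 and RefSeq GRCm38.p6, an annotation older than the authors' release. All tags lay within the GRCm38 chromosome lengths and every member matched by gene ID. Distances were taken between tag centres. TMM factors (30% and 5% trims) were computed (Python 3.11.15; scipy 1.17.1; pandas 2.3.3; numpy 2.4.6) over pcRNAs listed in both libraries, and were 1.03 for Input and 0.975 for H3K27me3-RADIP. Figures used matplotlib 3.10.9. Called RNAs had at least 20 pairs over both libraries and an absolute log2 ratio of at least 0.5. Shares were given 95% Wilson intervals, differences Newcombe intervals and ratios of counts exact conditional intervals, which cover counting error only, since amplified copies carry no identifiers and repeated tag positions made up 7.07% of Input and 9.09% of H3K27me3-RADIP channel pairs. No test was run between conditions. The counting of ratios was tested on simulated data.

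Named RNAs were the 10 with the most pairs; the 8 largest and 8 smallest ratios among RNAs with at least 50 pairs; the 5 with the most pairs in a single library, ties included; the 5 with the largest share over 100 kb; and the 5 largest and 5 smallest changes of median distance among RNAs with at least 20 pairs in each library. Some RNAs that the rule takes are not reported here by name and stay in all counts. Genes named from the DNA side, in far bins and at gene starts fall outside this rule and were picked with their values in view. The members and all lists were chosen with earlier results of these data known. Alternatives were a q-value limit of 0.01, repeated pairs counted once, shared combinations, other limits and scalings, leaving out members and equal weights; correction for GC and leaving out Grik3 were added after the data were seen.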

Additional observations from a re-analysis of the deposited data

How the results depend on the processing

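No paired analysis was possible because the replicates of each condition were merged into 1 table, and leaving out each replicate could not be run for the same reason. Where a value below moved, the cause was not tested beyond the setting's own construction. The ratio of the channel RNAs' share of pairs was 1.18 at a q-value of at most 0.01 and 1.09 without Grik3. Higher RNAs numbered 24 and lower RNAs 7 in shared combinations (24.5% and 7.14%, beside 12.1% and 14.3% of pcRNAs). They numbered 20 and 7 at a log2 limit of 1 (17.1% and 5.98%, beside 7.44% and 8.28%). With at least 100 pairs they were 22 and 6 (37.9% and 10.3%, beside 15.0% and 16.5%). When combinations were counted in place of pairs they were 2 and 1. Few RNAs reach 20 there, and the share over all pcRNAs was not computed. With an interval that must leave out 0 the lower RNAs were 11 (9.40%, beside 14.9% of pcRNAs). With at least 20 pairs required in each library, 73 RNAs were listed in both. The difference in the share over 1 Mb was 0.45 points at a q-value of at most 0.01, 0 in shared combinations, 0.22 with RNAs weighted equally and 0.63 without Grik3. The difference outside the own gene was 1.29 points in shared combinations and 3.77 with equal weights, and the ratio of median distances was 1.38 with equal weights. Distance to the gene edge gave no ratio, since its median was 0 in both libraries. In shared combinations Gabrg3 turned to 0.22. Scaling by library totals lowered every log2 ratio by 0.08 and gave 47 higher and 19 lower of 117 (beside 17.8% and 26.6% of pcRNAs). At a q-value of at most 0.01 Kcnq5, not called, went from -0.31 to 0.11, Clcn3 to -3.31, Cacna2d1 to -2.08 and Gabrg3 to -0.30. No other called RNA named here turned its sign. An RNA with 20 pairs in all has a counting interval wider than the limit, which bounds what this depth can show.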

Other observations

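Other channel genes and channel partners, a list of genes outside the name rule, were counted in the same way. Of 62 such RNAs listed, 52 were in both libraries, and of the 46 with at least 20 pairs 9 were higher in H3K27me3-RADIP (19.6%, beside 21.2% of pcRNAs) and 11 were lower (23.9%, beside 22.9%), both near the background. Dpp6, a partner of Kcnd channels, held 3099 and 3659 pairs, more than any channel RNA, with a log2 ratio of 0.21 (0.14 to 0.28). Asic2, an acid-sensing channel, had 440 and 666 pairs, at 0.57 (0.39 to 0.74). Gphn, the scaffold of inhibitory receptors, had 248 and 94, at -1.43 (-1.79 to -1.08), from a gene of 36.8% GC, and Fgf13, a sodium channel partner, had 115 and 43, at -1.45 (-1.99 to -0.93), from a gene of 37.9% GC. Of 154 Slc RNAs tested, 38 were higher (24.7%) and 27 lower (17.5%).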
